A study of Mus musculus with 9 samples.

Results

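Sorted mKate2- SB28 cells were compared with the astrocytes that had shared their culture, using 6 of the 9 RNA-seq libraries of the series, 3 from each population. SB28 is a single mouse glioblastoma line that was derived with an activated Nras, a p53 short hairpin and a PDGF transgene, and in this study it carried GFP. The astrocytes were primary neonatal cells of C57BL6 mito::mKate2 mice, in which a ubiquitous CAG promoter drives a red fluorophore addressed to mitochondria. All cells had been co-cultured for 2 days in DMEM F12 with FBS, N2 supplement, EGF and FGF, without other treatment, and both populations were sorted from 3 separate co-cultures. mKate2- SB28 cells are the tumor cells that showed no astrocyte mitochondria at the sort, and tumor cells that had taken them up form the remaining 3 libraries, which are given beside the others only as levels. The series text and the published methods assign the CellTrace Violet stain to different cells, so each library was taken as its title names it. The question addressed was which pathways, transcription factors, surface proteins and secreted proteins separated glioma cells without transferred mitochondria from their astrocyte neighbors. Of 49315 genes in the count table, the 13356 above 1 CPM (counts relative to the total of each library) in at least 2 of the 6 libraries were tested. Total counts were 24454561, 32707569 and 35135662 in the astrocyte libraries and 27187348, 35891589 and 29839630 in the mKate2- SB28 libraries.

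Astrocytes take up glutamate and potassium, supply lipids carried by apolipoprotein E and shape the extracellular matrix around neurons. Their identity is held by SOX, NFI, LHX and POU family factors, and NOTCH, BMP and WNT signals act on it. Glioma cells that have lost p53 and carry a RAS-type or PDGF drive divide without many of these controls, and mouse lines kept in serum can express genes of several embryonic lineages.

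The labels were first checked against marker genes. Levels throughout are CPM after TMM scaling, which sets library sizes so that most genes do not differ between libraries, and are given in the order of replicates 1, 2 and 3. The glutamate transporter gene Slc1a3 stood at 177, 174 and 231 CPM in astrocytes and at 1.11, 0.959 and 2.39 CPM in mKate2- SB28. The folate enzyme gene Aldh1l1 stood at 143, 109.5 and 169 CPM against 7.10, 8.51 and 6.35 CPM. Apoe stood at 271, 256 and 265 CPM against 2.66, 2.71 and 3.23 CPM, and in all 3 genes every astrocyte library exceeded every tumor library. Of 23 astrocyte markers, 19 were tested, 16 were lower in mKate2- SB28, 0 were higher and the median log2 fold change was -5.94. The summed level of the 23 markers was 1875, 1688 and 3398 CPM in astrocytes and 524, 574 and 531 CPM in mKate2- SB28, where the gap junction gene Gja1 supplied the most at a mean of 266 CPM. The 3 tested markers without a call were Gja1, at 172, 208 and 212 CPM in astrocytes and 242, 285 and 272 CPM in mKate2- SB28, Clu, at 93.8, 63.5 and 132 against 136, 105 and 99.1 CPM, and Sox9. Some defining astrocyte genes were low in the astrocyte libraries themselves. The intermediate filament gene Gfap stood at 9.06, 3.37 and 19.1 CPM (log2 fold change -5.72 in mKate2- SB28, and -4.95 without replicate 3), S100b at 0.335, 0.361 and 2.12 CPM, and Gjb6 had no count in any of the 6 libraries.

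Other cell types were looked for in the same way. The oligodendrocyte lineage list summed to 1024, 551 and 629.9 CPM in astrocytes and 44.7, 52.7 and 55.2 CPM in mKate2- SB28. Of 9 tested genes of this list, 7 were lower in mKate2- SB28 (Olig1, Olig2, Cnp, Cspg4, Myrf, Nkx2-2 and Bmp4). The list had 0 genes called higher and a median log2 fold change of -2.33. Its largest member, Olig1, reached 555, 237 and 299 CPM in astrocytes, while the lineage genes Sox10 (0, 0.0602 and 0 CPM) and Mog (0.0839, 0 and 0.140 CPM) were near 0 there. The microglial genes Ptprc (0.0419, 0.211 and 0 CPM in astrocytes, 0.0740, 0.226 and 0 CPM in mKate2- SB28) and Cx3cr1 (0.0419, 0 and 0 and 0, 0 and 0 CPM) were also near 0, and the list's sum was 91.2 to 107 CPM in all 6 libraries, with Tmem119 the largest member in mKate2- SB28 at a mean of 51.98 CPM. Of 5 tested genes of the microglia and macrophage list, P2ry12 and Cd68 were lower in mKate2- SB28 and Cd14 was higher. The neuron list summed to 80.1, 131 and 144.7 CPM in astrocytes and 54.7, 47.1 and 45.9 CPM in mKate2- SB28, led by Map2 in both, while the neuronal nuclear gene Rbfox3 had no count in the 6 libraries. Of its 10 tested genes, 6 were lower in mKate2- SB28 (Gad1, Gad2, Stmn2, Nefl, Nefm and Slc17a7), and the part of neuronal RNA in the results was not tested. Syp, the 1 gene called higher, was at the size limit (1.01, adjusted p = 0.0459) and lost its call without astrocyte replicate 2 or any 1 tumor library. The fibroblast and pericyte list, led by Col1a2, summed to 1634, 1691 and 1419 CPM in astrocytes and 794, 999.6 and 989 CPM in mKate2- SB28. In bulk RNA, fewer cells of a type and less RNA per cell cannot be told apart.

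Astrocyte replicate 3 stood apart from replicates 1 and 2. The Y-linked genes Ddx3y (0.294, 0.180 and 112 CPM), Uty (0.0839, 0 and 43.6 CPM), Kdm5d (0.168, 0 and 32.2 CPM) and Eif2s3y (0.168, 0.0301 and 43.4 CPM) were abundant in it alone, and the X-inactivation transcript Xist was at 125, 197 and 10.7 CPM. The water channel gene Aqp4 was at 5.79, 6.71 and 58.7 CPM (log2 fold change in mKate2- SB28 -6.88, and -4.96 without replicate 3, and -7.87 without mKate2- SB28 replicate 3). The ependymal and motile cilium list summed to 66.2, 53.7 and 142.5 CPM in astrocytes and 45.8, 57.9 and 51.2 CPM in mKate2- SB28. Cfap43 led it in both, at means of 39.5 and 48.2 CPM. Of its 7 tested genes 5 were lower in mKate2- SB28 (71.4%, against 22.4% of all genes tested). The endothelial list summed to 26.5, 38.4 and 212 CPM in astrocytes and 58.3, 68 and 64.0 CPM in mKate2- SB28. Flt1 made 189 CPM of it in astrocyte replicate 3, while the endothelial genes Cldn5, Tie1, Emcn and Sox17 had no count in astrocytes. The sex of the pups and any other difference between this library and the other 2 cannot be told apart, and the part of each in the results was not tested. Of the 2994 genes called lower below, 85 were more than 5 times higher in replicate 3 than in both other astrocyte libraries, against 1 gene for replicate 1 and 1 gene for replicate 2. Results that rest on replicate 3 are therefore given with and without it. Genes named below whose call ended without another library are marked where they stand. Counts of families and lists also hold genes near a threshold that are not marked, such as the frizzled gene Fzd2 (-0.888 without astrocyte replicate 1).

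A gene was called when its adjusted p-value was below 0.05 and its absolute log2 fold change above 1, by the quasi-likelihood test of edgeR, with p-values adjusted after Benjamini and Hochberg over all 13356 genes. By this rule 4525 genes separated the populations, 33.9% of those tested. In mKate2- SB28, 1531 genes (11.5%) were higher and 2994 genes (22.4%) were lower. The libraries of the 2 groups did not overlap for 1527 genes called higher and 2962 called lower, nor for 9479 (71%) of all genes tested, so that separate groups alone are common here. Without astrocyte replicate 3 the counts were 1591 and 2745, of which 1396 and 2630 had also been called with it. The median log2 fold change of all genes tested was -0.04.

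The 2 directions differed in size. Genes called lower had a median log2 fold change of -2.91, from a median level of 13 CPM in astrocytes to 0.955 CPM in mKate2- SB28, and 888 of them lay below -5. Genes called higher had a median of 1.41, from 17.1 CPM to 47.8 CPM, only 10 exceeded 3 and 0 exceeded 5. No gene of at least 20 CPM in SB28 was absent from an astrocyte library. Of 7523 genes with a mean of at least 20 CPM in mKate2- SB28, the lowest in astrocyte replicate 1 stood at 8.34% of its tumor level, in replicate 2 at 13.6% and in replicate 3 at 7.45%. In the opposite direction, 7891 genes had at least 20 CPM in astrocytes, and 356, 345 and 339 of them stood under 5% of that level in the 3 tumor libraries. Expression of these genes by astrocytes and RNA of SB28 cells in the sorted astrocyte libraries cannot be told apart in these data. When the lowest share was subtracted from each astrocyte library, an alternative chosen after seeing the data, 1853 genes were higher and 3167 lower. All 2994 genes called lower and 1510 of the 1531 called higher were among them.

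**Figure D1:**
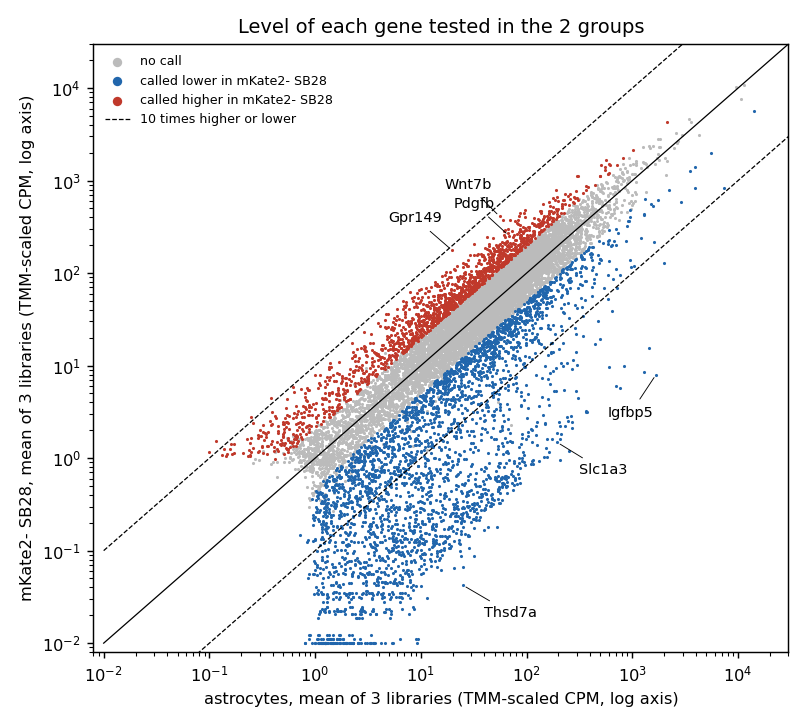
Mean TMM-scaled CPM of each of the 13356 genes tested, in astrocytes (x axis, log scale) and in mKate2- SB28 (y axis, log scale), with each mean taken over 3 libraries and values under 0.01 drawn at 0.01. Red points, the 1531 genes called higher, lie close to the upper dashed line of a 10-fold difference or inside it, while the blue points, the 2994 genes called lower, reach far beyond the lower dashed line.

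**Figure D2:**
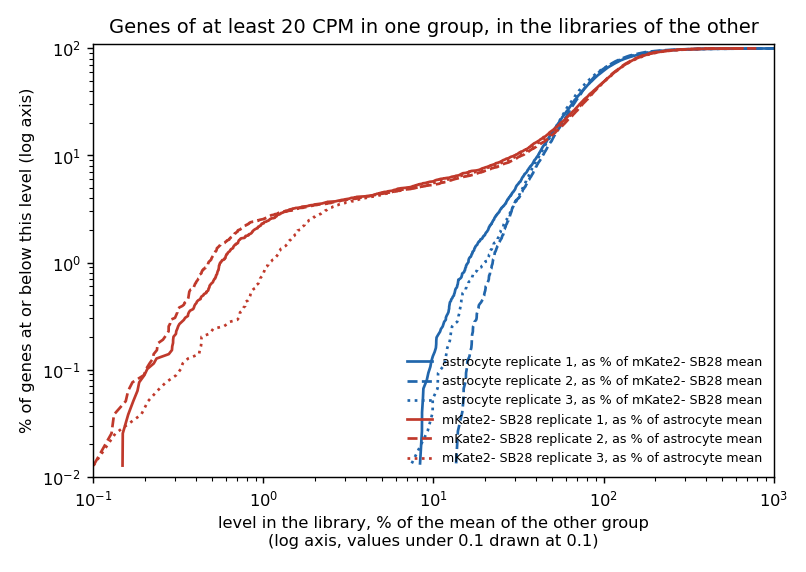
Cumulative share of genes (y axis, %, log scale) at or below a given level relative to the other population's mean (x axis, %, log scale), for genes of at least 20 CPM in one population, with 1 line per library. The 3 astrocyte lines (blue) start at 8.34%, 13.6% and 7.45%, whereas the 3 mKate2- SB28 lines (red) extend below 1%.

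The 5 largest differences toward SB28 among genes of at least 20 CPM there were led by Gpr149, which encodes an orphan G protein-coupled receptor (chromosome 3, 62529077 to 62605140, GRCm38). Gpr149 stood at 14.8, 27.9 and 16.4 CPM in astrocytes and 156, 202 and 173 CPM in mKate2- SB28 (log2 fold change 3.17 ± 0.26 (SE), adjusted p = 4.27e-05), with no overlap between the groups. The transcribed pseudogene Gm13230 followed, at 2.47, 3.49 and 2.80 against 20.9, 24.4 and 24.2 CPM (2.98 ± 0.19, adjusted p = 1.64e-05). Klra4, a member of the Ly49 family of natural killer cell receptors, stood at 6.29, 11.1 and 6.12 against 69.3, 58.2 and 58.3 CPM (2.98 ± 0.25, adjusted p = 5.25e-05). Its near-identical paralogs make the assignment of reads to this gene uncertain, and copies related to Gm13230 do the same there. Lhx1 and Wnt7b completed this set and are described with their families.

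At the other end, Thsd7a, a membrane protein gene with thrombospondin repeats, stood at 15.3, 27.7 and 31.9 CPM in astrocytes and 0.0370, 0.0564 and 0.0336 CPM in mKate2- SB28, where the 3 libraries held 4 counts in all (log2 fold change -9.04 ± 0.46 (SE), adjusted p = 8.48e-06). Nynrin was similar in each astrocyte library, at 13.7, 21.7 and 25.7 against 0.0370, 0.0564 and 0.101 CPM (-8.21 ± 0.42, adjusted p = 8.73e-06). It overlaps Gm26751 on the opposite strand, and the strand setting of the counting is not given in the sources used here. The other 3 genes of this set rested in part on astrocyte replicate 3. Susd5 stood at 10.4, 8.51 and 56.6 CPM in astrocytes and 0.0740, 0.0564 and 0.0672 CPM in SB28, and its log2 fold change moved from -8.51 to -7.09 without replicate 3. Chl1, a neural cell adhesion gene, stood at 1.43, 2.35 and 154 against 0.333, 0.113 and 0.101 CPM and moved from -8.21 to -3.40, while its adjusted p was 0.0511 without mKate2- SB28 replicate 2. Irx1 is described below.

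Transcription factors were divided unevenly. Of 449 factor genes in 40 families, 268 were tested, 47 were higher (17.5%) and 91 lower (34%) in mKate2- SB28, against 11.3% and 22% of all protein-coding genes. A list of 24 factors of neural and glial progenitors was written with earlier results of these data known. Of these, 21 were tested, 17 were lower (81%) and 1 was higher (4.76%), with a median log2 fold change of -4.87. The shares of all genes tested were 22.4% and 11.5%. Members scarce in the tumor cells passed the level filter through the astrocyte libraries. With at least 10 counts in each library, 10 were lower. Other developmental factor genes, such as Zic2 and Pax3, were higher and are described below.

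Olig2, a factor of the oligodendrocyte lineage and of many gliomas, stood at 275, 156 and 152 CPM in astrocytes and 1.74, 0.959 and 2.96 CPM in mKate2- SB28 (log2 fold change -6.70 ± 0.45 (SE), adjusted p = 2.03e-05). Lhx2, a forebrain factor gene, stood at 72.5, 51.8 and 73.8 against 0.629, 0.226 and 1.04 CPM. Neither gene had overlapping groups. All 3 POU3 genes tested were lower, among them Pou3f2 (60.7, 57.2 and 47.02 against 0.333, 0.141 and 0.908 CPM). Of 4 NFI genes, which drive astrocyte maturation, 3 were lower, with Nfia at 91.9, 57.7 and 91.1 against 6.88, 6.54 and 6.18 CPM and Nfix at 498, 495 and 614 against 58.2, 70.8 and 78.6 CPM. Nkx2-1, a ventral forebrain factor gene, varied within the astrocytes, at 76.5, 110.2 and 9.39 CPM, and stood at 0.148, 0.367 and 1.14 CPM in SB28.

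Of 13 Sox genes tested, 9 were lower (69.2%) and 0 higher, against 22.4% and 11.5% of all genes tested. The sizes of their differences varied widely. Sox21 stood at 131, 124 and 89.7 CPM in astrocytes and 0.333, 0.733 and 1.78 CPM in mKate2- SB28, a log2 fold change of -6.91, or -7.69 without mKate2- SB28 replicate 3. Sox2, a stem cell factor, kept a substantial level in tumor cells, at 455, 505 and 298 against 161, 172 and 154 CPM (log2 fold change -1.37 ± 0.19 (SE), adjusted p = 0.000556). Sox9 passed the adjusted p but not the size limit, at 185, 169.8 and 169.9 against 75.8, 113 and 90.7 CPM (-0.91 ± 0.15), and so did Sox11 in the opposite direction, at 31.7, 23.7 and 30.1 against 35.6, 38.9 and 37.7 CPM (0.39 ± 0.14). The ID genes, inhibitors of basic helix-loop-helix factors and targets of BMP signals, were lower as a whole family of 4, with Id3 at 524, 326 and 399 against 69.5, 62.6 and 80.4 CPM and Id1 at 223, 118 and 118 against 57.9, 53.2 and 64.1 CPM.

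The 5 factors with the largest differences on the lower side were Irx1, Irx2, Tbx3, Otx2 and Foxj1. Irx1 stood at 2.10, 3.04 and 91.1 CPM in astrocytes and 0.111, 0.0846 and 0.0672 CPM in mKate2- SB28 (log2 fold change -8.47 ± 1.94 (SE), adjusted p = 0.00615), and at -4.83 (adjusted p = 6.15e-05) without astrocyte replicate 3. Irx2 stood at 9.85, 6.41 and 66.8 against 0.148, 0.0846 and 0.202 CPM and moved from -7.57 to -5.79. Foxj1, the master factor of motile cilia, stood at 9.14, 6.62 and 74.6 against 0.259, 0.254 and 0.101 CPM and moved from -7.17 to -5.23. All 3 remained lower without that library, by a smaller amount. Tbx3 did not rest on it, at 15.9, 15.4 and 18.8 against 0.0370, 0.113 and 0.168 CPM (-7.22 ± 0.37, adjusted p = 8.73e-06), and Otx2, a forebrain and midbrain factor, was highest in astrocyte replicate 2, at 1.76, 32.5 and 10.96 against 0.148, 0.0846 and 0.0672 CPM (-7.21 ± 1.19, and -5.98 without that library). Tbx3 and Otx2 both overlap antisense transcripts (Tbx3os1 and Otx2os1).

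On the higher side the leading factors belong to LIM, T-box, TWIST, AP-2 and forkhead families, which are known from limb, kidney, neural crest and mesenchyme development. Lhx1 stood at 3.10, 7.13 and 3.86 CPM in astrocytes and 35.6, 35.3 and 37.8 CPM in mKate2- SB28 (log2 fold change 2.94 ± 0.30 (SE), adjusted p = 0.000118). Tbx18 stood at 3.14, 6.44 and 5.17 against 35.5, 36.1 and 36.6 CPM (2.87 ± 0.25), and Twist2 at 4.61, 4.96 and 4.03 against 33.1, 30.6 and 30.4 CPM (2.79 ± 0.15). The tumor libraries lay close together for all 3 and the groups did not overlap. Tfap2b stood at 7.55, 11.04 and 8.83 against 55.1, 58.1 and 70.99 CPM (2.74 ± 0.18, adjusted p = 2.01e-05), and Foxd1 at 2.98, 6.14 and 3.19 against 30.04, 27.5 and 23.3 CPM (2.71 ± 0.30, adjusted p = 0.000173). Tbx18 and Twist2 overlap the noncoding genes D030062O11Rik and Gm29100 on the opposite strand.

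**Figure D3:**
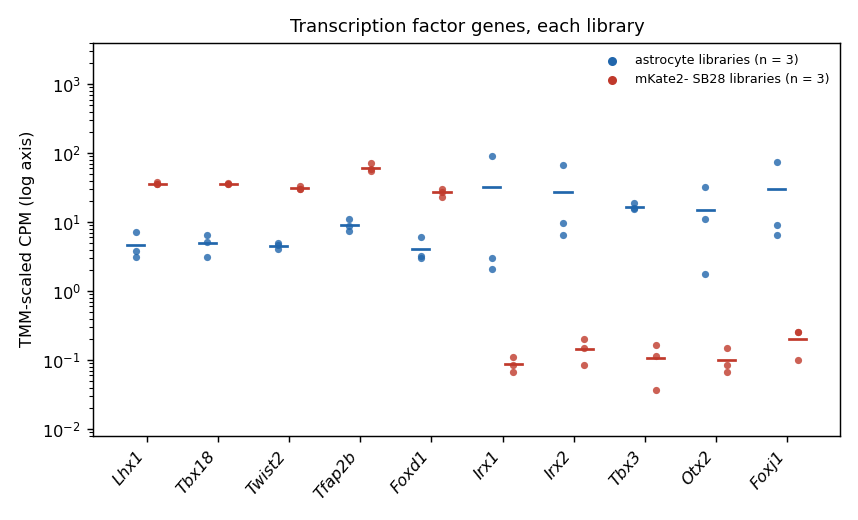
TMM-scaled CPM (log axis) of the 5 transcription factor genes with the largest differences in each direction, with 1 point per library (astrocytes blue, mKate2- SB28 red, 3 each) and a bar at the mean. The 5 higher genes lie between 2.98 (Foxd1) and 11.04 CPM (Tfap2b) in astrocytes and between 23.3 (Foxd1) and 70.99 CPM (Tfap2b) in SB28, while Irx1, Irx2 and Foxj1 have 1 astrocyte library far above the other 2.

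Several families of developmental factors held genes called higher, most of them beside members called lower. Of 5 ZIC genes, which act in dorsal neural development, 4 were higher, with Zic1 at 12.03, 40.6 and 23.2 against 88.1, 98.1 and 93.6 CPM and Zic2 at 3.31, 5.80 and 7.97 against 26.97, 30.6 and 26.5 CPM. The call of Zic4 ended without astrocyte replicate 1 (log2 fold change 0.985). It also ended without mKate2- SB28 replicate 2 or 3 (adjusted p = 0.0503 and 0.0604). Of 6 LHX and LMX genes, 4 were higher (Lhx1, Lhx6, Isl1 and Lmx1b) and Lhx2 was lower. Isl1 was scarce, at 0, 0.872 and 0.391 against 3.14, 2.82 and 2.52 CPM, and its adjusted p was 0.0578 and 0.0527 without mKate2- SB28 replicate 1 or 2. Of the fits that left out 1 library, Lmx1b was called only in that without astrocyte replicate 3, and its adjusted p reached 0.135 without astrocyte replicate 2. Among 27 forkhead genes, 8 were higher and 5 lower, where the shares of all genes tested were 11.5% and 22.4%. The call of Foxa2 ended without astrocyte replicate 2 (adjusted p = 0.0558) and that of Foxd2 without astrocyte replicate 1 or 2 (adjusted p = 0.075 and 0.105). The mesodermal pair Foxf1 (5.33, 7.28 and 4.08 against 28.04, 34.4 and 35.7 CPM) and Foxf2 (5.24, 7.67 and 5.67 against 31.7, 31.7 and 31.5 CPM) was higher, and so was the mitotic factor gene Foxm1 (43.8, 45.3 and 56.5 against 150.5, 145 and 169.7 CPM). The lower forkhead genes included Foxo1, Foxo3 and Foxo6. Of 8 sine oculis and eyes absent family genes 3 were higher and 2 lower, with Six2 at 9.94, 12.1 and 8.55 against 53.3, 55.3 and 55.9 CPM and Six4 at 12.8, 17.5 and 19.4 against 43.95, 45.5 and 39.9 CPM. The lower members were the forebrain and eye factor gene Six3 (220.5, 204 and 98.4 against 1.11, 0.930 and 2.76 CPM, -6.77 ± 0.51, and -7.41 without mKate2- SB28 replicate 3) and Eya4 (5.45, 13.3 and 5.42 against 0, 0.113 and 0.0672 CPM, -6.89 ± 0.73, and -7.68 without mKate2- SB28 replicate 2). Pax3 (4.32, 4.66 and 9.50 against 25.6, 29.9 and 26.4 CPM) was higher and Pax6 (3.98, 7.13 and 10.2 against 0.0370, 0.197 and 0.101 CPM) lower. Of 32 nuclear receptor genes, 14 were lower and only Nr2f2 was higher, at 39.1, 67.4 and 56.8 against 199.8, 208 and 196 CPM.

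A list of 31 genes of the mesenchymal state held 30 tested genes, of which 7 were higher (23.3%) and 6 lower (20%), with a median of -0.07, against 11.5% and 22.4% of all genes. Runx1 (41.4, 50.2 and 43.9 against 117, 132 and 126 CPM), Snai1 (13.3, 12.1 and 12.1 against 29.6, 34.7 and 36.6 CPM) and the AP-1 gene Fosl1 (81.7, 75.7 and 46.8 against 158, 166 and 144 CPM) were higher along with Twist2, and without astrocyte replicate 3 the log2 fold change of Fosl1 went from 1.20 to 0.99, just under the size limit. Twist1 was lower, at 141, 133.6 and 82.8 against 48.1, 46.6 and 45.8 CPM (-1.34 ± 0.19), so the 2 TWIST genes moved in opposite directions. Cebpd (58.1, 60.2 and 69.5 against 5.77, 5.61 and 5.82 CPM) and Zeb1 were lower too, the latter at the size limit (-0.97 without mKate2- SB28 replicate 1). The hyaluronan receptor gene Cd44 passed the adjusted p without the size limit, at 368, 452 and 331 against 573, 755 and 623 CPM (0.76 ± 0.16, adjusted p = 0.00409), and the filament gene Vim did not pass, at 12644, 11335 and 8163 against 6833, 8296 and 7572 CPM (-0.50 ± 0.20, adjusted p = 0.0544). Nes, the neural stem cell filament gene, was lower, at 323, 301 and 347 against 111, 111 and 117 CPM (-1.52 ± 0.10, adjusted p = 1.92e-05).

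In the cell cycle, both cyclin E genes and 4 E2F genes were higher in mKate2- SB28, while Ccnd1 and 16 genes of the p53 list were lower. Of 28 tested genes of the G1 list, 9 were higher (32.1%) and 6 lower (21.4%), and the latter share is near the 22.4% of all genes tested, of which 11.5% were higher. The E2F family, which holds activators and repressors of S-phase genes, had 8 tested members of which 4 were higher and 0 lower. E2f2 stood at 4.65, 5.80 and 5.34 CPM in astrocytes and 26.9, 22.9 and 24.7 CPM in SB28 (log2 fold change 2.23 ± 0.16 (SE), adjusted p = 2.46e-05). E2f7 stood at 7.42, 10.7 and 9.03 against 35.04, 33.9 and 38.3 CPM, and E2f8 at 18.7, 21.8 and 26.9 against 84.4, 81.9 and 92.5 CPM. E2f4 was the fourth, at 71.95, 71.5 and 54.2 against 186, 189.8 and 210.4 CPM, whereas E2f3 did not pass the test, at 33.9, 34.1 and 35.9 against 35.1, 33.01 and 37.5 CPM (0.02 ± 0.11, adjusted p = 0.873).

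E2F factors recognize sites in the promoters of cell cycle genes, including their own, so the RefSeq promoter windows (GRCm38.p6, 250 bases before to 50 after the start) of the 6 E2f genes that the table holds and of Cdkn2a were searched for one such site, TTTCCCGC, on both strands. It was present in 3 of these 7 windows and in 1.11% of the 27025 gene promoters of the table. The 3 stretches are shown because they set a higher E2F gene and Cdkn2a beside an E2F gene without a call, with the site in capitals and each written 5′ to 3′ on the strand of its gene.

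E2f7 (chr10:110745215-110745274, plus strand, called higher): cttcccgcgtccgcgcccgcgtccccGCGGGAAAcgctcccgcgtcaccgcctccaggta

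Cdkn2a (chr4:89294685-89294744, minus strand, called higher): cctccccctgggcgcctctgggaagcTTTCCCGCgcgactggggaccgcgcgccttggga

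E2f3 (chr13:29986064-29986100, minus strand, no call): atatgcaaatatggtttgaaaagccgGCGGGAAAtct

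The site begins 198 bases before the start of E2f7, 99 before that of Cdkn2a and 11 before that of E2f3, and in E2f7 and E2f3 it reads as the reverse complement. E2f2 and E2f8, which were higher, and E2f1 and E2f6, which had no call, had no match to these letters in the window. A match is a sequence description and was not tested against binding.

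Ccne1 stood at 21.3, 21.8 and 19.2 CPM in astrocytes and 52.6, 51.9 and 61.2 CPM in mKate2- SB28 (log2 fold change 1.41 ± 0.13 (SE), adjusted p = 6.35e-05), and Ccne2 at 11.2, 11.8 and 16.7 against 53.3, 42.97 and 58.5 CPM (1.96 ± 0.20). Cdk6 stood at 60.3, 39.6 and 34.7 against 106, 108 and 111 CPM, and Myc at 34.3, 53.1 and 38.2 against 125, 133.7 and 127 CPM (1.62 ± 0.17). These genes promote entry into S phase and every tumor library lay above every astrocyte library. The D-type cyclin gene Ccnd1 was lower, at 3260.0, 3748 and 3447 against 1177, 1313 and 1338 CPM (-1.45 ± 0.13). Ccnd2 was called lower, at 730.5, 1102 and 2858 against 481, 582 and 516 CPM, and its log2 fold change of -1.57 shrank to -0.80 without astrocyte replicate 3, which ends the call, as do adjusted p-values of 0.0637 and 0.0588 without mKate2- SB28 replicate 1 or 3. Mycn, the neural counterpart of Myc, was lower, at 19.7, 9.93 and 10.7 against 0.185, 0.0282 and 0.134 CPM (-6.87 ± 0.56), and the retinoblastoma gene Rb1 was lower at 94.8, 116 and 147 against 31.7, 40.7 and 33.4 CPM. The proliferation gene Mki67 fell short of the size limit, at 61.2, 42.9 and 125 against 149, 135 and 161 CPM (0.96 ± 0.35, adjusted p = 0.0432), and passed it without replicate 3 (1.52, adjusted p = 9.23e-05). It also passed with the replicate number as a block (1.10, adjusted p = 0.00434) and without a filter on low counts (1.02, adjusted p = 0.00423).

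Trp53, the gene of p53, stood at 84.03, 66.8 and 70.6 CPM in astrocytes and 18.4, 10.7 and 15.8 CPM in mKate2- SB28 (log2 fold change -2.31 ± 0.21 (SE), adjusted p = 7.5e-05), with no overlap. In a list of 27 p53 targets that includes Trp53 itself, all 27 were tested, 16 were lower (59.3%), 0 were higher and the median was -1.23. Of all genes tested, 22.4% were lower and 11.5% higher. The CDK inhibitor gene Cdkn1a stood at 758, 707 and 627 against 111, 133 and 87.7 CPM (-2.66 ± 0.18), and the p53 ligase gene Mdm2 at 238, 281 and 276 against 138, 119 and 115 CPM (-1.10 ± 0.12). The apoptosis gene Bax stood at 308, 233 and 174 against 115, 94.8 and 94.6 CPM, and Perp, an effector at the cell membrane, at 10.2, 13.9 and 17.3 against 0.148, 0.0846 and 0.134 CPM (-6.80 ± 0.36). Cdkn2a, whose p19 product stabilizes p53, was higher instead, at 195, 171 and 115 against 358, 349 and 315 CPM (1.09 ± 0.19, adjusted p = 0.00165). Without astrocyte replicate 3 its log2 fold change was 0.90, under the size limit.

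The genes of the line's other drivers were also read. Pdgfb stood at 71.99, 71.3 and 60.8 CPM in astrocytes and 273, 254 and 235 CPM in mKate2- SB28 (log2 fold change 1.90 ± 0.12 (SE), adjusted p = 1.4e-05). Nras passed the adjusted p but not the size limit, at 117, 125 and 114 against 207, 198 and 207 CPM (0.78 ± 0.09, adjusted p = 0.000248). Both genes had separate groups. Whether reads of a transgene entered these counts was not tested. Of 19 genes of RAS-MAPK output, 2 were higher (Fosl1 and Dusp5, 10.5%) and 5 lower (26.3%), among them the feedback inhibitors Spry1, Spry2 and Spry4, and both shares are near the 11.5% and 22.4% of all genes tested. Both higher genes fell under the size limit without astrocyte replicate 3, to 0.99 for Fosl1 and 0.86 for Dusp5. The PDGF-A receptor gene Pdgfra did not pass, at 10.5, 22.9 and 23.3 against 8.25, 14.1 and 12.5 CPM (-0.71 ± 0.33, adjusted p = 0.097), and was called lower without astrocyte replicate 1 (-1.01, adjusted p = 0.00747).

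Of 12 tested genes of an oncofetal list, 5 were higher (41.7%) and 6 lower (50%), against 11.5% and 22.4% of all genes tested. All 3 IGF2 mRNA-binding protein genes were higher, with Igf2bp1 at 9.98, 11.7 and 7.38 against 62.97, 62.4 and 69.7 CPM (2.75 ± 0.19) and Igf2bp3 at 10.5, 11.6 and 11.1 against 61.4, 64.2 and 79.3 CPM (2.62 ± 0.14). Hmga2, a chromatin protein gene of the embryo, stood at 665, 717 and 323 against 1755, 1646 and 1629.8 CPM, and the let-7 inhibitor gene Lin28b at 0.671, 0.812 and 1.01 against 6.14, 4.003 and 6.96 CPM. The lower members were the RNA-binding protein genes Msi1 and Msi2 and the imprinted genes Peg3, H19, Dlk1 and Plagl1, with H19 at 9.98, 9.41 and 10.8 against 0.185, 0.620 and 0.672 CPM (-4.33 ± 0.43).

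Genes of the cell surface were lower more often than higher. Of 1257 surface genes in 20 families, 638 were tested, 62 were higher (9.72%) and 288 lower (45.1%) in mKate2- SB28, against 11.5% and 22.4% of all genes tested, so that the share called higher lay near that of all genes. With a minimum of 10 counts in each library, which leaves out genes that are scarce in the tumor cells, 188 were lower. Over all genes the same filter lowered the number from 2994 to 2039. The families were taken by gene symbol, which also caught a few genes of other kinds, such as Slc7a6os. The genes called lower included 60 solute carriers, 36 cadherins and protocadherins and 24 potassium channels.

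Of 51 cadherin and protocadherin genes, 36 were lower (70.6%) and 3 higher (5.88%), against 22.4% and 11.5% of all genes tested. Many were members of the clustered protocadherins, whose shared exons make single members uncertain. Cdh2, the N-cadherin gene, stood at 653, 651 and 722 CPM in astrocytes and 215, 216 and 235 CPM in mKate2- SB28 (log2 fold change -1.61 ± 0.11 (SE), adjusted p = 1.93e-05), and Cdh6 moved the opposite way, at 11.6, 29.2 and 25.997 against 90.8, 86.3 and 87.2 CPM (1.98 ± 0.30). Of 16 adhesion molecules of the immunoglobulin family, 14 were lower, with Ncam1 at 196, 201 and 344 against 76.8, 90.98 and 83.3 CPM and Icam1 at 8.09, 7.16 and 13.7 against 0.0370, 0.0846 and 0.235 CPM, and only Alcam was higher, at 22.4, 45.9 and 53.2 against 101, 109.6 and 91.3 CPM. Among 12 membrane semaphorin genes 9 were lower (75%), and among 17 Eph and ephrin genes 10 were lower (58.8%) and 2 higher (11.8%). This last share was near that of all genes, and of all surface genes tested 45.1% were lower. Efnb2, a ligand of EphB receptors, was one of the higher pair, at 76.6, 104 and 105 against 274, 284 and 297 CPM.

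Of 33 potassium channel genes, 24 were lower (72.7%) and 5 higher (15.2%), against 22.4% and 11.5% of all genes tested. Kcnj10, the inward rectifier gene with which astrocytes buffer potassium, stood at 20.6, 24.8 and 60.3 CPM in astrocytes and 0.111, 0.0564 and 0.471 CPM in mKate2- SB28 (log2 fold change -7.38 ± 0.73 (SE), adjusted p = 0.000103, with -6.75 without astrocyte replicate 3 and -8.70 without mKate2- SB28 replicate 3). Kcnk5, a background potassium channel gene, was higher at 7.51, 7.97 and 6.21 against 47.8, 49.2 and 49.9 CPM (2.76 ± 0.14, adjusted p = 8.6e-06), and so was the calcium-activated channel gene Kcnn4, at 17.4, 11.2 and 11.7 against 51.1, 59.2 and 58.7 CPM (2.07 ± 0.19). None of these 3 genes had overlapping groups. Of 42 glutamate and GABA receptor genes, 12 were tested, and of these 9 were lower (75%) and 0 higher. The shares of all genes tested were 22.4% and 11.5%. Their median was -6.94, or -5.18 when genes without counts in SB28 are set to their bound. Members nearly absent from SB28 passed the level filter through the astrocyte libraries, so that their direction was fixed by the filter. Gria1 was uneven, at 2.31, 2.83 and 227 CPM in astrocytes, and its log2 fold change moved from -6.95 to -2.05 without replicate 3. Without mKate2- SB28 replicate 1, 2 or 3 its adjusted p was 0.0594, 0.0556 or 0.0598. Gria2 was low in both populations, at 1.76, 1.11 and 1.98 against 0.629, 0.197 and 0.303 CPM.

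The connexin gene Gjc1 was higher, at 7.25, 9.17 and 12.05 CPM in astrocytes and 53.9, 53.5 and 56.1 CPM in mKate2- SB28 (2.52 ± 0.19, adjusted p = 3.39e-05). Connexins form the gap junctions that join neighboring cells, and Gja1 differed by 0.43 with separate groups.

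Among receptors, the surface genes with the largest differences toward SB28 included Il18rap, the accessory chain of the interleukin 18 receptor, at 28.5, 37.2 and 28.8 against 196, 217 and 203 CPM (2.70 ± 0.14, adjusted p = 8.48e-06), and the integrin gene Itgb7, at 0.881, 1.32 and 0.783 against 6.92, 10.3 and 6.66 CPM (2.99 ± 0.33, adjusted p = 0.000171). Itga6, a laminin-binding integrin gene known from glioma stem cells, stood at 132, 188 and 244 against 480.4, 529.7 and 460.3 CPM. Met, the receptor of hepatocyte growth factor, was the only one of 23 receptor tyrosine kinase genes called higher (4.35%), at 105, 156 and 122 against 312, 339 and 358 CPM (1.40 ± 0.16, adjusted p = 0.000194). Of the 23 genes 8 were lower (34.8%), where 11.5% of all genes tested were higher and 22.4% lower. Ntrk2 (27.3, 50.9 and 21.02 against 0.222, 0.197 and 0.269 CPM) and Fgfr3 (9.06, 9.56 and 62.001 against 1.44, 0.818 and 0.706 CPM) are astrocyte receptors and were among the 8, the latter moving from -4.77 to -3.24 without replicate 3. Egfr, lower as well at 8.64, 10.8 and 42.97 against 2.89, 3.47 and 4.77 CPM, moved from -2.49 to -1.39. Of 38 cytokine and TNF receptor genes, 6 were higher (15.8%) and 10 lower (26.3%), shares near those of all genes tested. The endotoxin receptor gene Tlr4 (11.8, 25.6 and 19.2 against 54.4, 68.8 and 56.1 CPM) and its partner gene Cd14 (2.89, 3.37 and 2.60 against 14.9, 15.8 and 13.5 CPM) were both higher.

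For 3 of the 5 surface genes with the largest differences on the lower side, the counts in SB28 were so few that only ratios are given. Slc43a3, an amino acid carrier family gene, had 935 counts over the 3 astrocyte libraries and 1 over the 3 tumor libraries, in replicate 3, a ratio of 929 (95% exact interval 166 to 36721). Cdh22 had 774 counts against 2, a ratio of 384 (95% exact interval 106 to 3179.8), and the potassium channel gene Kcnk1 had 792 against 3, a ratio of 262 (95% exact interval 89.4 to 1274). Such intervals cover counting error only. Slc43a3 and Kcnk1 were highest in astrocyte replicate 3, at 5.12, 4.51 and 18.5 and 1.76, 1.68 and 19.4 CPM, whereas Cdh22 was not, at 12.6, 3.73 and 9.78 CPM. Without that replicate the ratios were 439 (78.2 to 17400) for Slc43a3, 343 (94.2 to 2840) for Cdh22 and 52.8 (17.5 to 260) for Kcnk1. Cdh4, at 1.43, 0.602 and 82.8 against 0.111, 0.141 and 0.0672 CPM, was not tested without that replicate because it then fell under the level filter, and its adjusted p was 0.0531, 0.0528 or 0.0527 without mKate2- SB28 replicate 1, 2 or 3. Kcnk1 overlaps Gm45875 on the opposite strand.

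**Figure D4:**
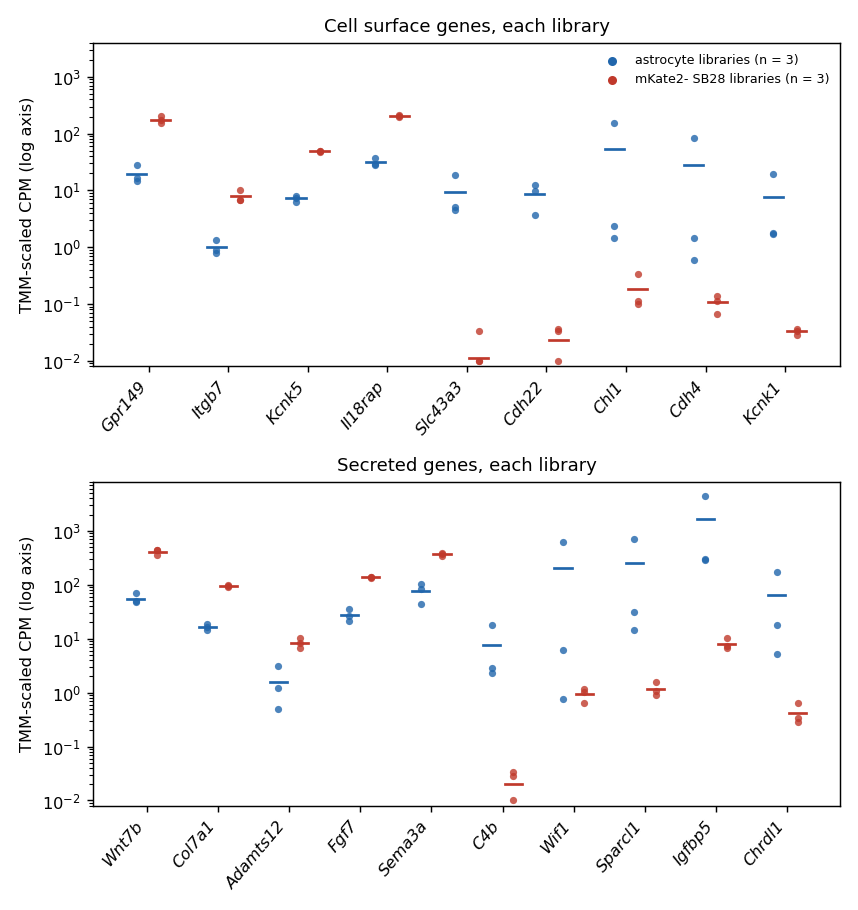
TMM-scaled CPM (log axis) of surface genes (top, 4 higher and 5 lower) and secreted genes (bottom, 5 higher and 5 lower) among those with the largest differences, with 1 point per library (astrocytes blue, mKate2- SB28 red, 3 each), a bar at the mean, and libraries without a count drawn at 0.01. Higher genes show tight red points above the blue ones, and in Chl1, Cdh4, Kcnk1, Wif1, Sparcl1, Igfbp5 and Chrdl1 a single astrocyte library lies far above the other 2.

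Secreted genes were also lower more often than higher. Of 593 secreted genes in 24 families, 286 were tested, 28 were higher (9.79%) and 152 lower (53.1%) in mKate2- SB28, beside 11.5% and 22.4% of all genes tested, so that here too the share called higher lay near the background. Families of matrix genes differed in their share called lower. Of 27 collagen genes, 19 were lower (70.4%) and 2 higher. Of 13 laminin, fibronectin and basement membrane genes, 7 were lower (53.8%) and 1 higher, a share near the 53.1% of all secreted genes. Matricellular genes (16 of 31 lower, 51.6%, and 2 higher) were also near it. Below it lay metalloprotease and Timp genes (12 of 29 lower, 41.4%, and 2 higher) and lysyl oxidase genes (2 of 5 lower, 40%, and 1 higher). Fn1, the fibronectin gene, stood at 3038, 3219.9 and 5453 CPM in astrocytes and 653, 935 and 929 CPM in mKate2- SB28 (log2 fold change -2.22 ± 0.27 (SE), adjusted p = 0.000272). Hapln1, a link protein gene of the brain matrix, stood at 17.99, 16.8 and 16.1 against 0.259, 0.0846 and 0.403 CPM (-6.10 ± 0.43). In a list of brain matrix genes, 9 of 15 tested were lower (3 with at least 10 counts in each library) and 2 were higher, the latter being Hapln4 and the hyaluronan synthase gene Has2, whose adjusted p was 0.0674 and 0.0591 without mKate2- SB28 replicate 2 or 3. The higher collagen genes were Col7a1, of the anchoring fibrils of skin, at 14.8, 18.98 and 16.7 against 98.5, 93.2 and 92.5 CPM (2.49 ± 0.13, adjusted p = 8.44e-06), and Col3a1, at 13.4, 19.7 and 45.1 against 60.7, 114 and 117 CPM (1.90 ± 0.45, and 2.54 without replicate 3). Col1a1 and Col1a2 were not called.

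Growth factors divided. Of 18 PDGF, VEGF, EGF and HGF family ligand genes, 7 were higher (38.9%) and 7 lower (38.9%), against 11.5% and 22.4% of all genes tested. The EGF receptor ligand genes Areg (17.4, 19.5 and 30.4 against 66.9, 58.1 and 47.6 CPM), Ereg (36.9, 94.7 and 58.8 against 159, 150.4 and 140.0 CPM) and Btc (3.40, 6.47 and 6.18 against 25.6, 27.1 and 23.3 CPM) were higher, Ereg with a log2 fold change of 0.95 without astrocyte replicate 1. Tgfa, which binds the same receptor, was lower, at 16.7, 17.9 and 30.5 against 0.259, 0.141 and 0.471 CPM (-6.23 ± 0.46). Vegfc was higher (2.31, 4.87 and 6.23 against 11.3, 11.98 and 12.97 CPM) and Vegfa lower (165, 229.8 and 171 against 83.3, 109 and 82.2 CPM), the latter close to the size limit and at -0.89 without astrocyte replicate 2, -0.98 without mKate2- SB28 replicate 1 and -0.97 without mKate2- SB28 replicate 3.

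The 4 PDGF genes split as pairs, with Pdgfb and Pdgfc higher and Pdgfa and Pdgfd lower. Pdgfc stood at 74.2, 82.7 and 69.5 against 145, 169 and 152 CPM (1.04 ± 0.11, and 0.99 without astrocyte replicate 3 or 0.98 without mKate2- SB28 replicate 2, just under the size limit), Pdgfa at 180.1, 116 and 85.1 against 61.7, 64.03 and 61.5 CPM (-1.02 ± 0.25, adjusted p = 0.00758, and -0.70 without astrocyte replicate 1) and Pdgfd at 23.9, 41.1 and 30.4 against 13.3, 13.7 and 11.3 CPM (-1.31 ± 0.21). Per kilobase of exon, the mean level in mKate2- SB28 was 61.1 CPM for Pdgfb, 30.6 for Pdgfc, 20.01 for Pdgfa and 4.05 for Pdgfd, while in astrocytes Pdgfa led at 40.7 and Pdgfb was at 16.4. Fgf7, a ligand of epithelial FGF receptors, was higher at 20.96, 36.2 and 26.4 against 141, 140.2 and 132 CPM (2.31 ± 0.19, adjusted p = 4.95e-05). The heparin-binding factor genes Ptn (45.03, 46.9 and 256 against 0.592, 0.677 and 1.34 CPM, -7.05, and -5.72 without replicate 3) and Mdk (7.72, 4.15 and 9.78 against 0.629, 0.0846 and 0.303 CPM) were lower.

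Of 8 genes of insulin-like growth factors and their binding proteins, 6 were lower (75%) and 1 higher (12.5%). The shares of all genes tested were 22.4% and 11.5%. Igfbp3, the main IGF carrier of serum, stood at 8887, 7968 and 5216 CPM against 748, 894 and 852 CPM in mKate2- SB28 (log2 fold change -3.15 ± 0.23 (SE), adjusted p = 2.75e-05). Igfbp5 stood at 286, 296 and 4452 against 10.1, 6.63 and 7.26 CPM, and its log2 fold change moved from -7.71 to -5.19 without astrocyte replicate 3, remaining lower (adjusted p = 9.31e-07). Igfbp4 was the higher one, at 66.2, 102 and 248 against 276, 445 and 368 CPM (1.39, and 2.11 without replicate 3). Its adjusted p was 0.0509, 0.0943, 0.0868 and 0.0664 without astrocyte replicate 1, astrocyte replicate 2, mKate2- SB28 replicate 2 and mKate2- SB28 replicate 3.

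Guidance and matrix-remodeling factors were also among the genes with the largest differences. Sema3a, a secreted repellent of axons, stood at 44.9, 84.5 and 101 CPM in astrocytes and 337, 395 and 379 CPM in mKate2- SB28 (2.27 ± 0.28, adjusted p = 0.000278), and Sema3e at 8.39, 13.5 and 34.05 against 83.1, 86.1 and 100.5 CPM (2.26 ± 0.46, and 3.02 without astrocyte replicate 3). The other members of this group leaned the opposite way, with 10 of 14 semaphorin, slit and netrin genes lower (71.4%, against 22.4% of all genes tested). Among them was Slit2 at 22.4, 47.4 and 61.6 against 9.40, 8.77 and 9.61 CPM. The protease gene Adamts12 stood at 0.503, 1.20 and 3.07 against 6.73, 8.20 and 10.3 CPM (2.38 ± 0.57, adjusted p = 0.00776, and 3.25 without replicate 3). After the subtraction described above its log2 fold change was larger, at 3.15, with an adjusted p of 0.054. Sparcl1, an astrocyte protein that promotes synapses, stood at 30.7, 14.5 and 703 against 1.59, 0.902 and 1.08 CPM and moved from -7.73 to -4.25 without replicate 3. Chrdl1, a BMP antagonist gene of astrocytes, stood at 5.12, 17.7 and 174 against 0.333, 0.282 and 0.639 CPM and moved from -7.30 to -4.78. Of 18 genes of the complement family only 5 were tested, and these 5 were lower. Among all genes tested 22.4% were lower, and among all secreted genes tested 53.1%. Members scarce in SB28, such as C4b, passed the level filter through the astrocyte libraries. C3 had an adjusted p of 0.0648 without mKate2- SB28 replicate 3. C4b had 794 counts in astrocytes and 2 in SB28, a ratio of 394 (95% exact interval 109 to 3262), and its astrocyte levels were 2.35, 2.92 and 17.9 CPM. Without astrocyte replicate 3 the ratio was 124 (33.6 to 1030).

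**Figure D5:**
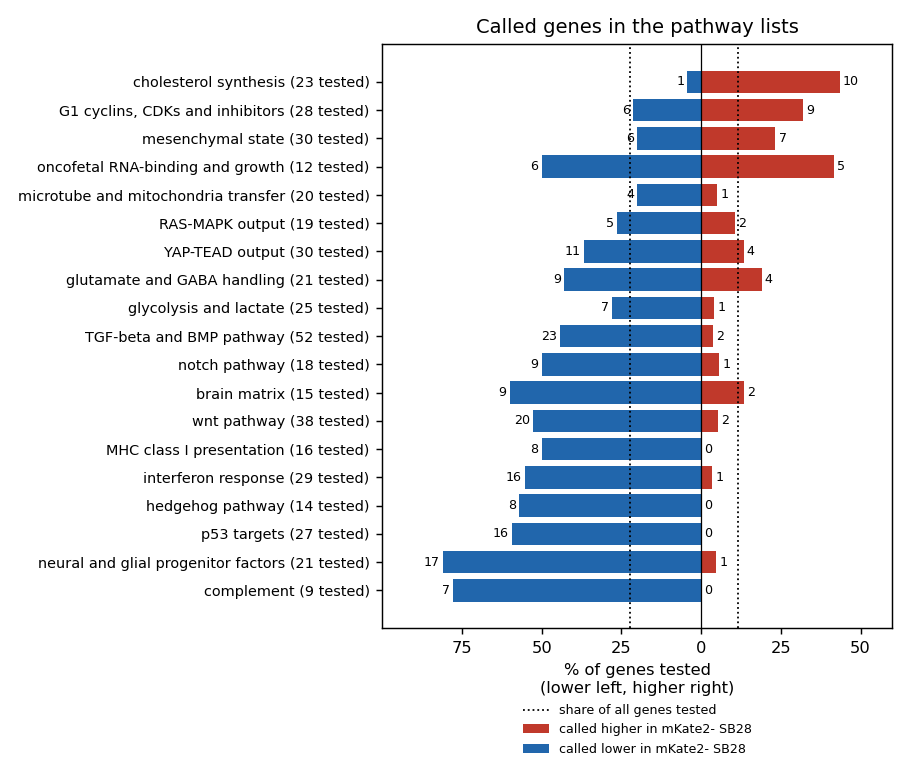
Share of the tested genes of each pathway list called higher (red, right) or lower (blue, left) in mKate2- SB28, with the number of genes at each bar and dotted lines at the shares of all genes tested, 11.5% and 22.4%. Cholesterol synthesis has 10 of 23 genes higher, and neural and glial progenitor factors have 17 of 21 lower.

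The lists of developmental pathways held more genes called lower than higher in mKate2- SB28, as did all genes tested (22.4% lower and 11.5% higher), and many of their receptor genes had no call. In the WNT list, 38 of 61 genes were tested, 20 were lower (52.6%) and 2 higher (5.26%, and 4 genes without astrocyte replicate 3), with a median of -1.15. The ligand gene Wnt7b was higher, at 48.6, 68.9 and 49.03 CPM in astrocytes and 359, 439 and 434 CPM in SB28 (log2 fold change 2.89 ± 0.18 (SE), adjusted p = 1.38e-05). The feedback target Axin2 was lower by far, at 82.3, 83.4 and 109.8 against 1.07, 0.874 and 1.51 CPM (-6.32 ± 0.25, adjusted p = 4.48e-06), and the groups of both genes were separate. The antagonist gene Sfrp1 stood at 208, 208 and 209 against 1.41, 1.47 and 3.83 CPM (-6.54 ± 0.39, and -7.17 without mKate2- SB28 replicate 3), and 6 frizzled receptor genes were lower, while Fzd3, Fzd4, Fzd6 and the co-receptor genes Lrp5 and Lrp6 had no call. Lef1, the nuclear effector, was higher at a low level, at 1.64, 2.41 and 3.19 against 5.85, 8.04 and 5.75 CPM. The antagonist gene Wif1 was called lower on 1 library, at 6.12, 0.752 and 617 against 1.18, 1.01 and 0.639 CPM. Its groups overlapped, its adjusted p was 0.0703, 0.0722 and 0.0725 without mKate2- SB28 replicate 1, 2 and 3, and its log2 fold change went from -7.78 (adjusted p = 0.0209) to -1.82 (adjusted p = 0.059) without astrocyte replicate 3. Wnt7b overlaps AU022754 on the opposite strand.

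Of 18 tested NOTCH pathway genes, 9 were lower (50%) and 1 higher (5.56%), against 22.4% and 11.5% of all genes tested. The receptor gene Notch1 stood at 221, 268 and 376 CPM in astrocytes and 21.3, 23.5 and 31.5 CPM in mKate2- SB28 (log2 fold change -3.50 ± 0.24 (SE), adjusted p = 2.29e-05). Its ligand gene Jag1 stood at 202, 248 and 298 against 33.8, 32.96 and 31.7 CPM (-2.93 ± 0.16), and its target Hes1 at 54.8, 86.98 and 94.1 against 15.2, 34.7 and 35.8 CPM (-1.46 ± 0.34). Jag1, Notch1 and Hes1 thus lay below the astrocyte range in every tumor library, while Notch2, Dll1 and Rbpj had no call. Nrarp, a target that restrains the pathway, was higher, at 1.51, 2.29 and 4.84 against 8.07, 9.56 and 7.60 CPM (1.54 ± 0.41, adjusted p = 0.0128, and 2.13 without astrocyte replicate 3).

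In the hedgehog list 8 of 14 tested genes were lower (57.1%) and 0 higher, against 22.4% and 11.5% of all genes tested. Shh, a ligand gene, stood at 71.9, 108 and 44.6 CPM in astrocytes and 0.407, 0.395 and 0.571 CPM in SB28 (-7.34 ± 0.42, adjusted p = 1.09e-05). The receptor gene Ptch1 stood at 135, 158 and 210.1 against 69.04, 81.3 and 76.4 CPM (-1.15 ± 0.17), and its log2 fold change of -0.96 without astrocyte replicate 3 lay under the size limit. The effector gene Gli1 was low in both populations, at 3.52, 4.48 and 5.28 against 1.15, 2.002 and 1.92 CPM (-1.39 ± 0.32).

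Of 52 tested genes of TGF-beta and BMP signaling, 23 were lower (44.2%) and 2 higher (3.85%). The number called higher was 5 without astrocyte replicate 3, and 1 with upper-quartile scaling or with at least 10 counts in each library. The receptor gene Tgfbr2 was lower, a call that ended without astrocyte replicate 3 (-0.68) and with the replicate block (-0.997), while Tgfbr1, Tgfbr3, Bmpr1a, Bmpr2, Acvr1, Acvr1b and Acvr2a had no call. Among ligand genes, Tgfb2 stood at 40.6, 30.1 and 68.2 CPM in astrocytes and 2.07, 1.44 and 1.58 CPM in mKate2- SB28 (-4.78 ± 0.35, adjusted p = 2.92e-05), and Tgfb1 at 79.3, 61.6 and 59.9 against 29.6, 35.9 and 30.2 CPM (-1.07 ± 0.15, and -0.94 without astrocyte replicate 1). The activin subunit genes moved apart, with Inhba higher at 5.28, 11.7 and 11.7 against 29.9, 31.5 and 26.4 CPM (1.61 ± 0.29) and Inhbb lower at 47.97, 54.3 and 21.7 against 4.48, 9.16 and 4.97 CPM (-2.73 ± 0.41). The activin receptor gene Acvr2b was the other higher member, at 2.94, 2.59 and 2.49 against 5.70, 5.70 and 5.21 CPM. Of 30 tested genes of YAP-TEAD output, 11 were lower (36.7%) and 4 higher (13.3%), against 22.4% and 11.5% of all genes tested. The share called higher was thus near that of all genes. Tead4 and Ankrd1 were among the higher members, while the commonly used targets Ccn1 and Ccn2 were lower.

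Cholesterol synthesis was, of all pathway lists, the one with the largest share of genes called higher. All 23 of its genes were tested, 10 were higher (43.5%), 1 was lower (4.35%) and the median log2 fold change was 0.79, against -0.04 for all genes. Idi1, an isomerase gene of the isoprenoid steps, stood at 49.9, 72.9 and 39.1 CPM in astrocytes and 186, 194 and 159 CPM in mKate2- SB28 (log2 fold change 1.74 ± 0.22 (SE), adjusted p = 0.000355). The squalene enzyme gene Sqle stood at 179.5, 174 and 137 against 383, 429 and 357 CPM (1.26 ± 0.14), and Dhcr7, of the last step, at 58.4, 53.5 and 46.01 against 144, 150.3 and 141 CPM (1.47 ± 0.12). Lss, which closes the sterol rings, stood at 84.4, 110.2 and 72.7 against 224, 258 and 184 CPM (1.32 ± 0.19). All 4 genes had separate groups, and on the opposite strand Idi1 overlaps Gm48574 and Lss overlaps 4930483K19Rik.

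Of 206 solute carrier genes tested, 18 were higher (8.74%) and 60 lower (29.1%), against 11.5% and 22.4% of all genes tested. Carriers of amino acids were among the genes called in both directions. The glutamine carrier gene Slc1a5 stood at 21.5, 24.5 and 22.4 CPM in astrocytes and 91.5, 88.5 and 78.6 CPM in mKate2- SB28 (1.92 ± 0.11, adjusted p = 1.3e-05), and the large neutral amino acid carrier gene Slc7a5 at 117, 126 and 165 against 464, 475 and 396 CPM (1.71 ± 0.16). The cystine carrier gene Slc7a11 was spread within both groups, at 104, 126 and 46.1 against 425, 321 and 203 CPM (1.78 ± 0.40, adjusted p = 0.00525). Among the amino acid carrier genes called lower were Slc43a2 (27.5, 25.4 and 56.02 against 2.70, 2.99 and 2.52 CPM, -3.73 ± 0.34), Slc7a2, Slc7a4, Slc7a7, Slc7a8, Slc38a3 and Slc6a15. The 2 main monocarboxylate carrier genes went opposite ways, with Slc16a1 at 91.9, 99.2 and 92.1 against 418, 462 and 455 CPM (2.24 ± 0.10) and Slc16a3 at 48.8, 51.3 and 46.4 against 2.33, 4.82 and 2.66 CPM (-3.89 ± 0.28). Of 25 glycolysis and lactate genes, Slc16a1 was the 1 called higher and 7 were lower, among them Ldhb. Of 21 genes of glutamate and GABA handling 9 were lower, among them the transporter gene Slc1a2 at 4.57, 11.1 and 55.8 against 0.259, 0.197 and 0 CPM (-7.26, and -5.66 without astrocyte replicate 3), and 4 were higher. Of 25 tested ABC transporter genes, 4 were higher (16%) and 11 lower (44%), the latter including the lipid exporter gene Abca1 (546, 744 and 513 against 116, 130.3 and 156 CPM, -2.16 ± 0.18). The drug exporter genes Abcg2 (32.5, 53.4 and 58.9 against 200.5, 184 and 169 CPM), Abcc4 (32.8, 36.8 and 67.8 against 168, 154 and 131 CPM) and Abcb1b (13.4, 23.04 and 22.9 against 40.8, 43.6 and 40.8 CPM) were higher, Abcb1b with a log2 fold change of 0.85 without astrocyte replicate 1.

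Genes of antigen presentation and of the interferon response were on the lower side in mKate2- SB28. Of 16 tested MHC class I genes, 8 were lower (50%) and 0 higher, against 22.4% and 11.5% of all genes tested. With at least 10 counts in each library 4 were lower, and the subtraction described above gave 1 called higher. The peptide transporter gene Tap1 stood at 44.5, 29.5 and 41.3 CPM in astrocytes and 0.185, 0.367 and 0.840 CPM in SB28 (log2 fold change -6.35 ± 0.44 (SE), adjusted p = 2.23e-05, and -7.05 without mKate2- SB28 replicate 3), and the class I heavy chain gene H2-K1 at 52.8, 40.1 and 64.9 against 10.5, 15.9 and 12.7 CPM (-2.01 ± 0.22). H2-D1 (74.3, 56.96 and 76.5 against 37.2, 46.8 and 38.9 CPM, -0.76 ± 0.15) and B2m (237, 219 and 177 against 131, 159.7 and 129 CPM, -0.59 ± 0.14) passed the adjusted p but not the size limit. Reads of the related class I heavy chain genes can be shared, and Tap1 overlaps Psmb9. In the interferon list, 29 of 41 genes were tested, 16 were lower (55.2%) and 1 was higher (3.45%), with a median of -1.3. The shares of all genes tested were 22.4% and 11.5%. Without astrocyte replicate 3, 10 genes of the interferon list were lower. Ifi27 stood at 39.6, 35.7 and 40.8 against 6.81, 10.3 and 8.30 CPM (-2.19 ± 0.18) and the factor gene Irf7 at 2.89, 1.74 and 3.97 against 0.296, 0.254 and 0.336 CPM (-3.27 ± 0.43). Trim25, a ubiquitin ligase of RNA sensing, was the higher one, at 19.7, 18.4 and 32.7 against 47.4, 45.3 and 54.4 CPM (1.05 ± 0.23), and lay under the size limit without astrocyte replicate 1 (0.92), astrocyte replicate 2 (0.89) or mKate2- SB28 replicate 3 (0.98).

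Genes of cell protrusions were read because the study is about mitochondria transfer. A list of 20 genes of tumor microtubes and mitochondria transfer had 1 higher (5%) and 4 lower members (20%), and the latter share is near the 22.4% of all genes tested. The members called are given as single genes. Gap43, a growth cone gene known from tumor microtubes, stood at 6.83, 5.05 and 12.998 CPM in astrocytes and 0.666, 0.959 and 1.48 CPM in mKate2- SB28 (log2 fold change -2.998 ± 0.46 (SE), adjusted p = 0.000868), with no overlap, and it remained lower without replicate 3 (-2.51). Ttyh1, another microtube gene, stood at 74.01, 77.4 and 51.4 against 0.851, 0.536 and 1.51 CPM (-6.14 ± 0.37). The filopodia motor gene Myo10 (296, 282 and 274 against 137, 141 and 134.2 CPM) and Marcks (226, 282 and 262 against 112, 133 and 125 CPM) were also lower, Marcks just at the size limit (-0.997 without astrocyte replicate 2 and -0.989 without mKate2- SB28 replicate 1). Tnfaip2, whose product builds tunneling nanotubes, was the higher member, at 39.5, 46.7 and 50.5 against 173, 186 and 165 CPM (1.94 ± 0.12, adjusted p = 1.62e-05).

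The mKate2+ SB28 libraries, scaled together with the other 6, showed the same genes at levels that can be set beside these. Gap43 stood at 0.668, 0.831 and 1.13 CPM there, Tnfaip2 at 182, 179 and 161, Gpr149 at 169, 181 and 164, Wnt7b at 397, 467 and 421 and Lhx1 at 34.6, 28.4 and 38.9 CPM. Slc1a3 stood at 0.835, 0.609 and 1.13, Olig2 at 1.45, 0.637 and 0.593 and Apoe at 2.67, 2.13 and 2.82 CPM. These 3 genes, abundant in the astrocyte libraries, were thus low in tumor cells with and without astrocyte mitochondria. Mki67 stood at 108, 50.1 and 115 CPM, with mKate2+ replicate 2 the lowest. The 2 tumor populations were not tested against each other here.

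Genes encoded by the mitochondrial chromosome took 1.77%, 2.92% and 3.14% of all counts in astrocytes and 1.00%, 0.842% and 1.24% in mKate2- SB28, so every tumor library lay below every astrocyte library. An exact permutation test of 3 against 3 libraries cannot go below 0.1 (two-sided).

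Position in the genome was a feature that the choice of genes did not use. Only 1 gene of the Y chromosome was tested, and on the other chromosomes the median log2 fold change ran from -0.35 on chromosome 7 (59 genes higher and 284 lower of 1014) to 0.33 on chromosome 19 (86 higher and 79 lower of 459), with -0.29 on X, -0.26 on 9, 0.20 on 8 and 0.20 on 15. Among genes above 10 CPM in both populations the same order of the ends held, with -0.05 on chromosome 7 and 0.43 on chromosome 19, while X moved to 0.08. Of 224 windows of 10 Mb with at least 20 genes, the highest median, 0.82, lay at 50000001 to 60000000 of chromosome 15, where 12 of 38 genes were higher and 4 lower. The lowest, -1.51, lay at 50000001 to 60000000 of X, where 15 of 26 genes were lower. Among genes above 10 CPM in both populations the former median was 0.82 (23 genes) and the latter only -0.22 (9 genes). DNA copy number was not measured here. Protein-coding genes called higher had a median exonic length of 4411 bases, those called lower 4566 bases and the others 4668 bases.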

How the data were processed

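The authors deposited 1 table of raw counts per gene for 9 libraries. Per the submitters' processing notes, reads were handled with Trimmomatic 0.36, STAR 2.5.2b and featureCounts of Subread 1.5.2, and the annotation release and strand setting are not given in the sources used here, so reads of genes that overlap on opposite strands may not be told apart. Gene names and lengths came from GENCODE M21 (GRCm38). Of 49315 gene IDs, 49056 were matched to a name.

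Counts of the 3 mKate2- SB28 and 3 astrocyte libraries were filtered (above 1 CPM in at least 2 of 6), scaled by TMM and tested with the quasi-likelihood test of edgeR 4.0.16 in R 4.3.3, with Benjamini-Hochberg adjustment over all 13356 genes. The procedure was tested on simulated data. DESeq2 1.42.0, other scalings, other filters, a fit of all 9 libraries, a replicate block and leaving out each library were alternatives, and a subtraction of the lowest SB28 share was added after seeing the data. Replicates were separate co-cultures, and p-values measure the spread between them.

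The text names a set of anchor genes, the 5 called genes per direction with the largest absolute log2 fold change overall (at least 20 CPM in the higher group) and in each of 3 classes (at least 5 CPM), members of the pathway lists and called members of the families. Members and lists were chosen with earlier results of these data known. Families were built from gene symbols. RefSeq promoters matched 79.95% of the 12347 protein-coding genes tested, under the 80% needed, so shares of promoters with a motif were not compared between called genes. The mKate2 transgene was not analysed here. Some genes that these rules select are not reported here.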

Additional observations from a re-analysis of the deposited data

How the results depend on the processing

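Directions of both gene counts and of the counts in the 3 classes did not depend on the settings tried, and the numbers stayed within 1.5 times of the reported ones except for cell surface genes called lower, which went from 288 to 188 when at least 10 counts in each library were required, since fewer genes were then tested. Leaving out 1 library at a time gave 1417 to 1591 genes higher and 2745 to 2921 lower, with 38 to 58 and 86 to 96 transcription factors, 57 to 73 and 266 to 294 surface genes and 25 to 33 and 131 to 151 secreted genes. DESeq2 called 1510 higher and 2989 lower, upper-quartile scaling 1311 and 3187 (it moved the median of all genes to -0.12), and no filter 1762 and 4119. Requiring at least 10 counts in each library tests fewer genes and lowered the number called lower from 17 to 10 in the progenitor list, 16 to 10 in the astrocyte list, 16 to 7 in the interferon list, 9 to 3 in the brain matrix list, 9 to 4 in glutamate and GABA handling, 8 to 4 in MHC class I and 7 to 3 in complement. Over all genes this filter lowered the number from 2994 to 2039. The list counts were not set beside the number of genes then tested, so they give no shares to compare with that of all genes. Of 827 genes followed through the settings, only Xist changed sign. Its log2 fold change went from -0.69 to 0.013 (adjusted p = 0.991) without astrocyte replicate 2, and to -1.23 without astrocyte replicate 3, and the cause was not tested. Folds of genes nearly absent from SB28 also moved by over 1.5 times without single tumor libraries, as for Nkx2-1 (-6.87 to -7.90), Pou3f2 (-6.92 to -7.88) and Icam1 (-6.29 to -7.16) without replicate 3.

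The replicate numbers were not treated as pairs in the main fit. Libraries with the same number deviated together by correlations of 0.0551, 0.047 and 0.0244, and those with different numbers by -0.0938 to 0.0528. The labels do not state whether equal numbers mark the same co-culture, and such small correlations cannot settle it. With the number as a replicate block 1593 genes were higher and 2969 lower, of which 1517 and 2949 had been called without it, and 10 of the 827 genes lost their calls, among them Wif1 (-4.29, adjusted p = 0.0877) and Pdgfa (-0.96, adjusted p = 0.00426). Among the genes that gained a call with it was Mki67 (1.10, adjusted p = 0.00434). Library totals were 24454561 to 35891589 counts, and libraries of 1 group differed by a chi-square per degree of freedom of 29.15 to 129.8 over genes, so that the spread between replicates exceeded counting error.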
